A study of Homo sapiens with 3 samples.

Results

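Translesion synthesis lets a cell copy past damaged DNA. The expression of 9 genes of this process was examined in HepG2 cells, an established human hepatocarcinoma line with wild-type p53. The genes were PCNA, RAD18, POLH, POLI, POLK, REV1, REV3L, MAD2L2 and POLQ, chosen by the gene name of the array design out of 27274 gene names. They were measured by 11 probes of 60 bases, since PCNA and POLH had a pair of probes each. Cells were left untreated or received 10 μM etoposide (the low dose) or 100 μM etoposide (the high dose), and total RNA was taken at 30 h. Etoposide traps topoisomerase II on DNA and causes DNA breaks. The labels call the control untreated, whereas the study's own tables name the solvent DMSO. There was 1 array for each condition, which leaves the fold changes without a replicate check and allows no test between conditions.

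Replicative DNA polymerases stall at damaged bases. PCNA is the ring that holds polymerases on DNA, and the ubiquitin ligase RAD18 marks the ring at a stalled fork so that a translesion polymerase can take over. The Y-family polymerases POLH, POLI, POLK and REV1 insert bases opposite damage, and polymerase zeta, whose catalytic subunit is REV3L and whose adaptor is MAD2L2, extends from them. POLQ, polymerase theta, joins broken ends through short matching stretches and can also bypass some damage. PCNA and POLH are known p53 target genes, which is background to the comparison and was not tested on these arrays.

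The sequences behind the PCNA result are given first, because PCNA was the member for which both probes gave a call of similar size. Both PCNA probes match transcript NM_002592 on chromosome 20 of hg18, minus strand. Probe 1 lies at chr20:5043957-5044102, where the file places its 60 bases over 146 bases of genome with 86 bases skipped. It therefore crosses a splice junction. Probe 2 lies at chr20:5046164-5046223 without a gap. No annotation of that build was used here, so exon numbers are not given. At least 1 sense reading frame of each was free of stop codons.
PCNA probe 1: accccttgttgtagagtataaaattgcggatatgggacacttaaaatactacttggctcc
PCNA probe 2: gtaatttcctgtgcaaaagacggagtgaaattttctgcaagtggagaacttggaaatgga

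Promoter windows of 250 bases before the transcription start were read from RefSeq on GRCh38.p14, 5′ to 3′ on the gene's own strand, and were found for all 9 members. PCNA and POLH are shown because each had a probe more than 4-fold higher at 10 μM. PCNA has a start with a window at chr20:5126623-5126872 and another with a window at chr20:5119959-5120208, both on the minus strand. The POLH window is chr6:43575935-43576184 on the plus strand. Capitals mark matches to a motif.
PCNA promoter, chr20:5126623-5126872: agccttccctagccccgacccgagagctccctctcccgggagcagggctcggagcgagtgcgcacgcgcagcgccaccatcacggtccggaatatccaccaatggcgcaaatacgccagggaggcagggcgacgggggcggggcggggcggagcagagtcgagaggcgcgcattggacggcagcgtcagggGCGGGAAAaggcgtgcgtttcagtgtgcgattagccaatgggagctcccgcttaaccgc
PCNA promoter, chr20:5119959-5120208: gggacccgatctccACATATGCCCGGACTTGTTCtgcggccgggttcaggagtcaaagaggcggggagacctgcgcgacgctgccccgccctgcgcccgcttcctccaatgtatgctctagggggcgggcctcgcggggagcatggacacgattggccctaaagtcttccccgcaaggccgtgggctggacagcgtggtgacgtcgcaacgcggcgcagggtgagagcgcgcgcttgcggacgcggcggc
POLH promoter, chr6:43575935-43576184: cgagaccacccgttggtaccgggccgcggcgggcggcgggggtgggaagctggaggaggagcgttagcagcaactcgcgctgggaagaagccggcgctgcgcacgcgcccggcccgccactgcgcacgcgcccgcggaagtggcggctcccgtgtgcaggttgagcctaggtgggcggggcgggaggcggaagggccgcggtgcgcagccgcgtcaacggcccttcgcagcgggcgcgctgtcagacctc

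The upstream PCNA window held an E2F word, GCGGGAAA, at -59 to -52 from the start. The other PCNA window held a match to the p53 response element at -236 to -217, with 2 mismatches over 20 bases and no spacer between its parts. The POLH window held no match. Motifs were searched on both strands of 35116 windows of the same length. The p53 element matched 197 windows (0.561%), the E2F words TTTCCCGC, TTTCGCGC, TTTGCCGC and TTTGGCGC matched 979 (2.79%), and the CHR element TTTGAA matched 4677 (13.3%). The mismatch limit of the p53 element was set after the PCNA windows had been read. Its share therefore does not tell how unusual the PCNA match is. Among the other members, POLI held an E2F word at -213 to -206, REV3L at -88 to -81, and POLQ a CHR element at -230 to -225. No match in these windows overlapped another. A match describes letters in a window and not a bound site.

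All 3 arrays lay on 1 slide and held 34127 probes besides the control spots. Between 19836 and 20151 probes were well above background on an array by the scanner software's call, and no spot was saturated. All 11 member probes were well above background on all 3 arrays. Signals below are the deposited background-subtracted intensities, before any scaling between arrays, and serve to compare arrays for 1 probe and not 1 probe with another. Fold changes were computed after each array was set relative to its 75th percentile over probes, a signal of 514 in control cells, 536 at 10 μM and 432 at 100 μM. For that reason a probe with an equal signal in control cells and at the high dose has a fold change above 1. A difference of 2-fold was taken as a call. The SD given with a log2 fold change is that of the ratio. It was taken from the spread between spots of repeated probes of a like signal and divided by the root of the number of spots averaged. PCNA probe 1 and RAD18 were spotted 10 times, which makes their SD smaller than that of probes with 1 spot. The SD holds spot noise within an array and nothing of cultures. All 9 hepatocyte markers were well above background on each array, with a summed signal between 235058 and 256599. Single markers moved more than that sum. TTR was 2.16-fold over control at 100 μM, and HNF4A, a dim probe, was 2.19-fold lower at 10 μM than at 100 μM. The median log2 fold change of the hepatocyte markers over control was -0.06 at 10 μM and 0.47 at 100 μM. Of 8 markers of other cell types, 5 were well above background on all arrays and COL1A1 and COL1A2 on none. The summed signal of the 8 was 2838, 9343 and 6564 in the order of dose, and ACTA2, an actin of smooth muscle, made up most of it. ACTA2 was 4.40-fold over control at 10 μM and 3.65-fold at 100 μM. Others went the other way, with PTPRC, a leukocyte marker, at 0.489 of control at 10 μM and PDGFRB, of pericytes, at least 3.58-fold lower at 100 μM. The median log2 fold change of the compared markers of other cell types was -0.54 at 10 μM and 0.23 at 100 μM, and their part in the results below was not tested.

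At the low dose, 5 of 11 member probes were at least 2-fold higher than in control cells and 0 were 2-fold lower, while among all 20705 probes compared 3.19% were higher and 1.56% lower. These 5 were both probes of POLH, both of PCNA, and POLQ. From these same arrays the study had already picked PCNA and POLH as more than 3-fold over control at the low dose. Its pick also asked for more than 2-fold over the high dose. It then set both genes aside because their functions were well established. The members were chosen with such results known, so the counts here and below describe the members and are no test of the group. With 100 μM, 1 of 11 was 2-fold higher, POLH probe 1, and 2 were 2-fold lower, POLQ and RAD18, against a background of 6.58% higher and 3.62% lower over 20832 probes. Between the doses, 5 of 11 were at least 2-fold higher at the low dose and 0 lower, against 3.51% and 3.88% of 20702 probes. These were both PCNA probes, POLH probe 2, POLQ and RAD18. The comparisons of the doses with control share the control array, so an error on that array would enter both. RNA of whole cultures cannot tell apart fewer cells expressing a gene from less RNA per cell.

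**Figure D1:**
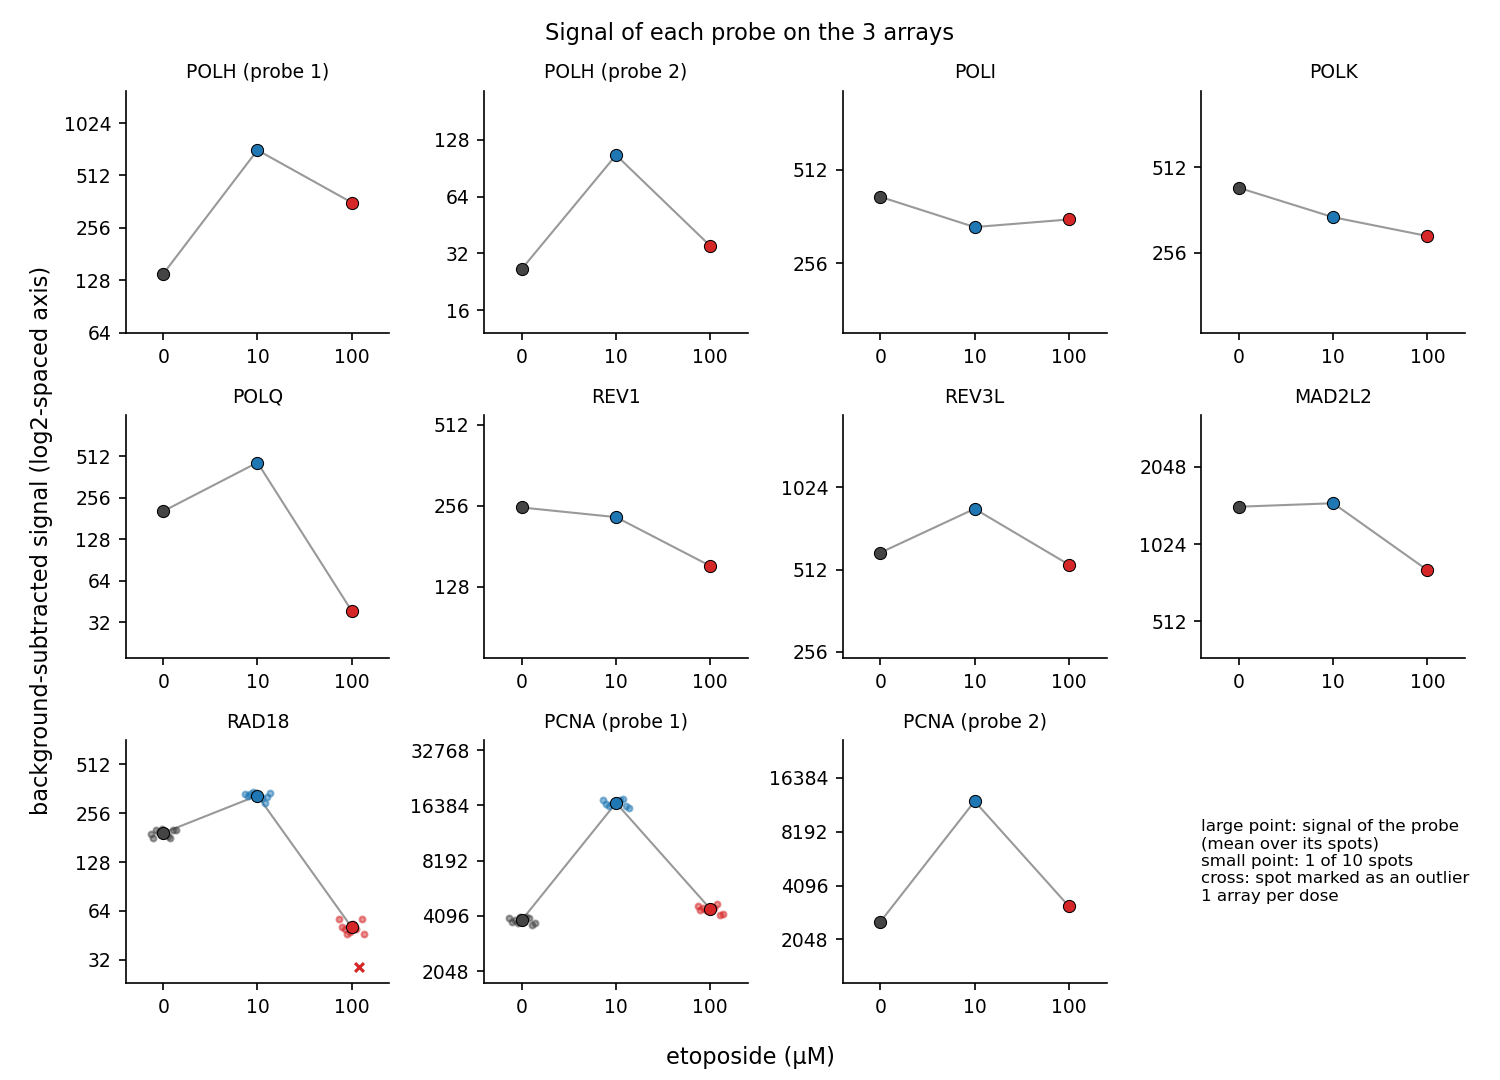
Background-subtracted signal (log2-spaced axis) of each of the 11 member probes against etoposide dose (μM), with 1 array per dose. Large points are probe signals, small points single spots where a probe was spotted 10 times, and the cross is a spot marked as an outlier; PCNA and POLH peak at 10 μM, and POLQ and RAD18 are lowest at 100 μM.

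PCNA exceeded control more than 4-fold at the low dose and stayed within 2-fold of control at the high dose. Probe 1 had a signal of 3886 in control cells, 16893 at 10 μM and 4472 at 100 μM. That is 4.17-fold over control at the low dose (log2 2.06, spot SD 0.020) and 1.37-fold at the high dose (log2 0.45, spot SD 0.021). The probe was spotted 10 times, and its spots ran from 3660 to 4030 (median 3927) in control cells and from 15876 to 17772 (median 16926) at the low dose. On the high dose array they ran from 4151 to 4749 (median 4524). The spots of the 3 arrays therefore did not overlap, with the low dose far above the other arrays. Probe 2, at another place in the transcript, gave 2572, 12121 and 3137 in the same order, or 4.52-fold (log2 2.18, spot SD 0.064) and 1.45-fold (log2 0.54). Both probes thus showed the same order of conditions, and the low dose exceeded the high dose 3.04-fold by probe 1 and 3.11-fold by probe 2. Of all 20705 probes, 133 had a larger increase than PCNA probe 1 at the low dose.

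RAD18, like the ring it modifies, was highest at the low dose, and it differed from the ring in falling below control at the high dose. Its probe, at chr3:8896634-8896693 of hg18 on the minus strand (NM_020165), read 193 in control cells, 329 at 10 μM and 50.7 at 100 μM. It was 1.63-fold over control at the low dose (log2 0.70, spot SD 0.028), short of 2-fold. Under the high dose it was 0.312 of control (log2 -1.68, spot SD 0.053), that is 3.21-fold lower. Its 10 spots ran from 180 to 204 in control cells and from 297 to 345 at the low dose. On the high dose array they ran from 46.4 to 57.1, apart from a spot at 28.7 that the software marked as an outlier and that was left out. No spot of any array overlapped those of another, and RAD18 at the low dose exceeded the high dose 5.22-fold (log2 2.38). In that comparison 161 of 20702 probes lay higher.

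POLH, the polymerase that copies past ultraviolet-induced dimers and is lost in the variant form of xeroderma pigmentosum, was the only member called higher at both doses, by probe 1. Probe 1 (NM_006502, chr6:43696176-43696235, plus strand, hg18) read 139 in control cells, 716 at 10 μM and 358 at 100 μM. The increase was 4.92-fold at the low dose (log2 2.30, spot SD 0.095) and 3.05-fold at the high dose (log2 1.61, spot SD 0.100). Only 103 of 20705 probes had a larger increase at the low dose. Probe 2 (chr6:43690307-43690366) was dimmer, with signals of 26.5, 106 and 35.0, where the dimmest probe above background read 19.5 to 22.7 on the arrays. It was 3.84-fold over control at the low dose (log2 1.94, spot SD 0.270). For 100 μM it was 1.57-fold (log2 0.65, spot SD 0.330), which lay within 2 spot SD of no change and also of the 2-fold threshold. Both probes placed the low dose highest, and they differed in the call at the high dose. They also differed in the call between the doses, where the low dose exceeded the high dose 1.61-fold by probe 1 and 2.44-fold by the dimmer probe 2. The value of probe 2 between the doses lay within 2 spot SD of 2-fold as well, so probe 2 settles neither call.

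POLI, POLK and REV1, the other Y-family polymerases, were not called at either dose. POLI (NM_007195, chr18:50074931-50074990, plus strand, hg18), which inserts bases opposite damage with low accuracy, read 418, 334 and 354 in control, low and high dose. It was 0.766 of control at the low dose (log2 -0.38, spot SD 0.078) and 1.01 of control at the high dose, within 2 spot SD of no change. The low dose was thus the lowest for POLI, and control and high dose could not be ordered. Without scaling the low dose differed from the high dose by log2 -0.08 and with median scaling by -0.13, both within 2 spot SD, in place of -0.39. POLK (NM_016218, chr5:74930447-74930506, plus strand, hg18), which bypasses bulky lesions on guanine, read 433, 342 and 293. It was 0.756 of control at the low dose (log2 -0.40) and 0.805 at the high dose (log2 -0.31). Both doses lay below control beyond 2 spot SD, and the doses did not differ from each other by that measure.

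REV1, a scaffold that other translesion polymerases bind and that inserts cytosine opposite damage, read 252, 232 and 153. Its probe (NM_016316) spans chr2:99385200-99385556 of hg18 on the minus strand with 297 bases skipped. It was 0.882 of control at the low dose (log2 -0.18), within 2 spot SD of no change, and 0.722 of control at the high dose (log2 -0.47, spot SD 0.097). The high dose was the lowest condition for REV1, and control and low dose could not be ordered.

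**Figure D2:**
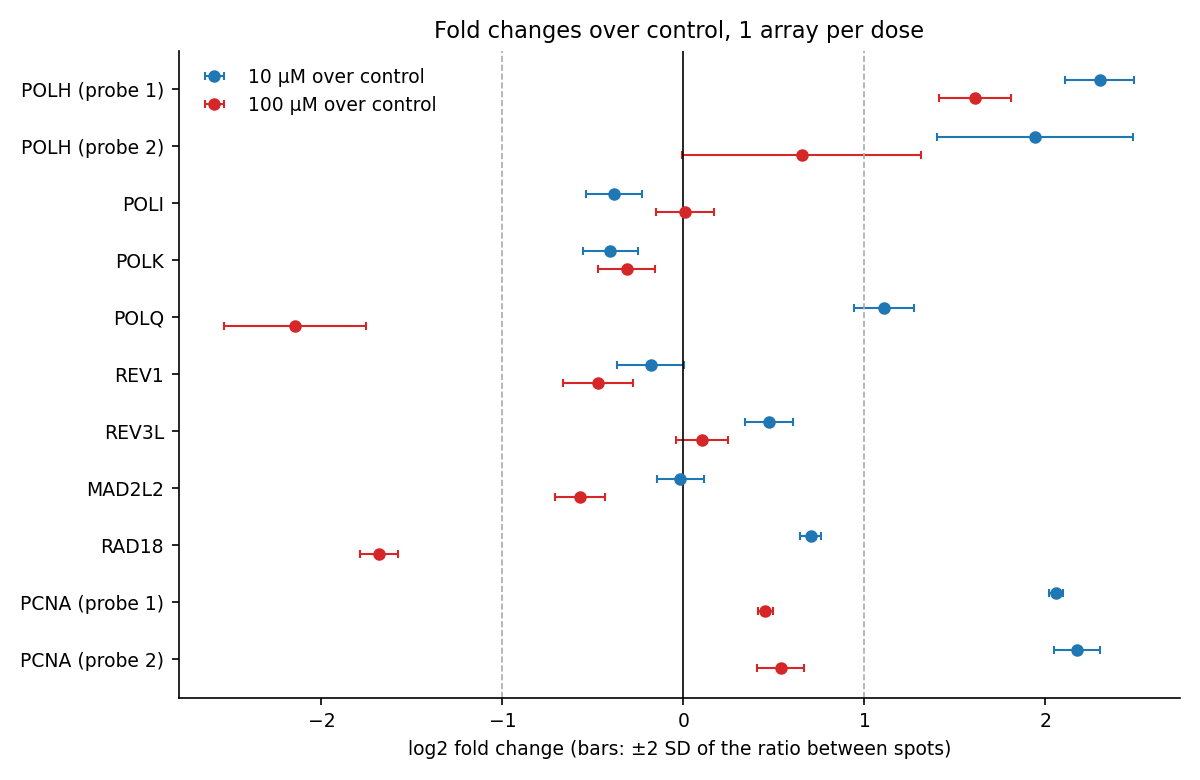
Log2 fold change over control of each member probe at 10 μM (blue) and 100 μM (red), with bars of 2 SD of the ratio between spots and dashed lines at 2-fold. POLH and PCNA stand to the right at 10 μM, POLQ and RAD18 to the left at 100 μM, and POLI, POLK, REV1, REV3L and MAD2L2 stay between the dashed lines at both doses.

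Neither subunit of polymerase zeta was called at either dose. REV3L (NM_002912, chr6:111727207-111727266, minus strand, hg18) read 591 in control cells, 855 at 10 μM and 534 at 100 μM. It was 1.39-fold over control at the low dose (log2 0.47, spot SD 0.065) and 1.08-fold at the high dose, the latter within 2 spot SD of no change. MAD2L2 (NM_006341, chr1:11657750-11657809, minus strand, hg18), the adaptor that also serves the shieldin complex at broken ends, read 1431, 1476 and 810. It was 0.989 of control at the low dose, within 2 spot SD of no change, and 0.673 of control at the high dose (log2 -0.57, spot SD 0.069). REV3L was therefore highest at the low dose and MAD2L2 lowest at the high dose, neither by 2-fold, and the remaining pair of conditions could not be ordered for either gene. POLD2 and POLD3, which polymerase zeta shares with the replicative polymerase delta, were looked up after their values had been seen. POLD2 read 1037, 951 and 483, or 0.879 and 0.554 of control, and POLD3 read 587, 1116 and 217, or 1.82-fold and 0.438 of control.

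POLQ showed the widest difference between doses. Its probe (NM_199420, chr3:122633392-122633451, minus strand, hg18) read 204 in control cells, 459 at 10 μM and 38.8 at 100 μM. It was 2.15-fold over control at the low dose (log2 1.11, spot SD 0.082), which lay within 2 spot SD of the 2-fold threshold. At the high dose it was 0.226 of control (log2 -2.15, spot SD 0.196), that is 4.43-fold lower. The conditions were thus all separated by more than spot noise, in the order low dose, control, high dose. The low dose exceeded the high dose 9.54-fold (log2 3.25, spot SD 0.190), and 24 of 20702 probes lay higher in that comparison. At the high dose, 164 of 20832 probes lay lower relative to control.

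Set side by side, the members took different paths over dose. Of 15178 genes whose brightest probe was above background on every array, 207 were at least 2-fold higher at both doses. POLH was among them by probe 1, whereas its probe 2 was 1.57-fold over control at the high dose. Another 144 were 2-fold higher at 10 μM and within 2-fold of control at the high dose, as PCNA was. Only 19 were 2-fold higher at the low dose and 2-fold lower at the high dose, and POLQ was among these. Counted by gene with the brightest probe, 3 of 9 members were 2-fold higher at the low dose (background 3.38%) and 0 lower (1.61%). With 100 μM 1 was higher (6.84%) and 2 lower (3.71%), and between the doses 3 were higher at the low dose (3.66%) and 0 lower (3.97%). The median log2 fold change of the 9 genes was 0.47 with 10 μM and -0.31 with 100 μM, compared with -0.04 and 0.10 over all genes. Members lay on both sides of control at each dose. By more than 2 spot SD, POLI and POLK were below control at the low dose. PCNA and POLH probe 1 were above control at the high dose by that measure, whereas POLH probe 2 was not.

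**Figure D3:**
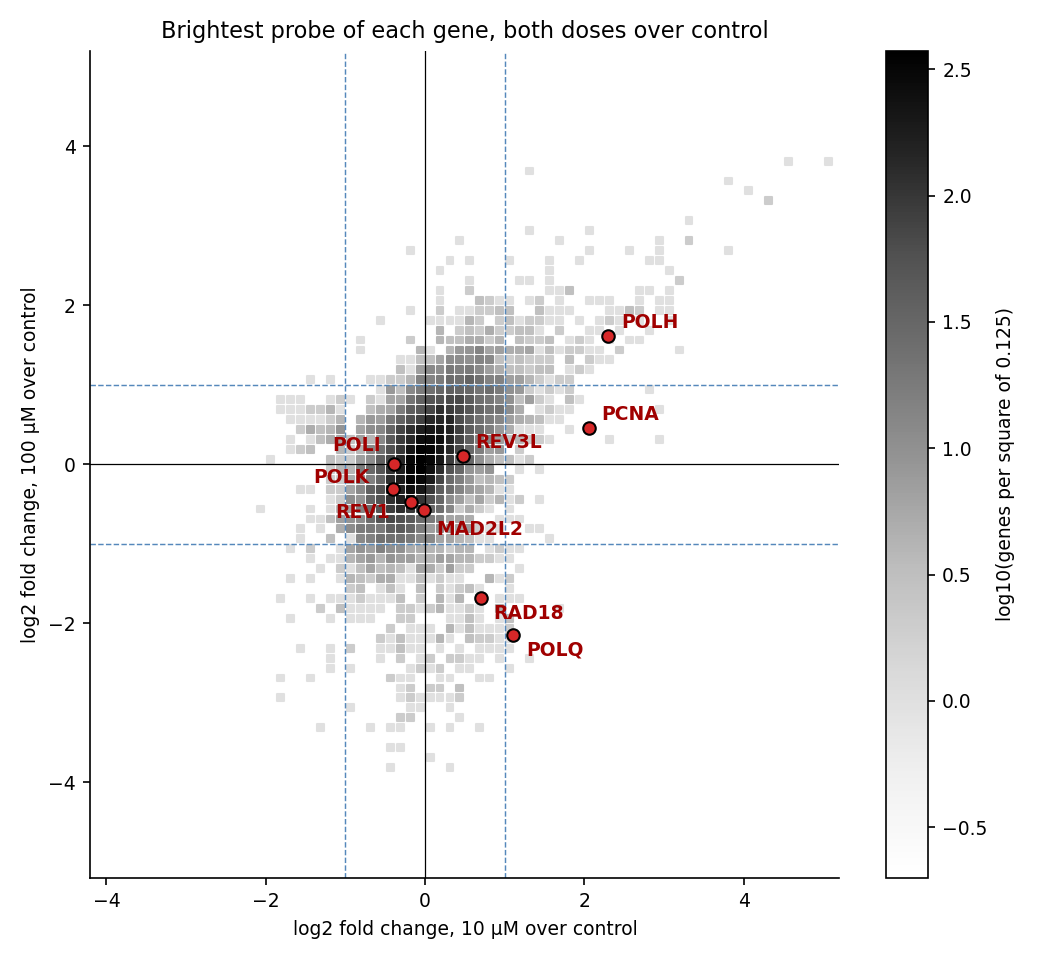
Log2 fold change over control at 100 μM against that at 10 μM, for the brightest probe of 15178 genes (grey squares, darker where more genes fall) and the 9 members (red), with dashed lines at 2-fold. POLH lies past 2-fold on both axes, PCNA on the 10 μM axis only, and RAD18 and POLQ below the lower line at 100 μM.

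The genes with the values most like those of PCNA, POLH and POLQ were taken by the distance over both log2 fold changes among genes with an mRNA accession, over 3 arrays with a shared control. Nearest to PCNA were SLC48A1 (distance 0.25), APOBEC3B (0.31), WBSCR27, now METTL27 (0.37), IER5 (0.41) and ANGPTL2 (0.41). SLC48A1, a heme transporter, was 3.50-fold over control at the low dose and 1.37-fold at the high dose. Nearest to POLH, taken by its brighter probe, were NOTCH3 (0.16), PROCR (0.18), APOBEC3C (0.19), IGFBP1 (0.20) and CPA1 (0.21). NOTCH3, a receptor, was 5.28-fold and 3.34-fold over control. Among those nearest to POLQ were BLM (0.04), ESCO2 (0.08), CDC45L, now CDC45 (0.17) and MLF1IP, now CENPU (0.20). BLM, a helicase of recombination, was 2.17-fold over control at the low dose and 0.232 of control at the high dose.

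Genes of PCNA ubiquitination, its reversal and the proteins that act with it stayed mostly near control at the low dose. Of 12, 1 was 2-fold higher and 0 lower with 10 μM, while 0 were higher and 2 lower with 100 μM. Over all genes, 3.38% were higher and 1.61% lower with 10 μM, and 6.84% and 3.71% with 100 μM, and the counts of this and the following lists stand against these shares. The median log2 fold change was -0.10 and -0.26. USP1, the enzyme that removes ubiquitin from PCNA, read 1204, 1452 and 384, or 1.16-fold over control and then 0.380 of control. ATAD5, which unloads PCNA and guides USP1 to it, read 75.3 in control cells and 171 with 10 μM, a 2.18-fold difference. With 100 μM, ATAD5 was not well above background and was at least 2.81-fold lower than control.

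The replicative polymerases and the factors that load PCNA were mostly lower at the high dose. Of 19 genes, 4 were 2-fold higher and 0 lower at the low dose, whereas 1 was higher and 11 lower at the high dose. The 4 were POLE, POLA2, FEN1 and LIG1 and the 1 was POLD4, named after their values were seen. Between the doses, 14 of 19 were higher at the low dose and 0 lower. Their median log2 fold change was 0.52 at the low dose, -1.15 at the high dose and 1.77 between the doses, where the 9 members had 0.55 and all genes -0.11. Where both doses gave a signal above background, the largest differences between doses were those of RFC3, a subunit of the clamp loader, at 5.54-fold, PRIM1, the primase subunit, at 5.19-fold and POLA2, of polymerase alpha, at 5.02-fold. RFC3 read 263, 394 and 57.3, PRIM1 read 800.0, 1198 and 186, and POLA2 read 130, 371 and 59.6. POLE2, a subunit of polymerase epsilon, was not well above background at the high dose and was at least 4.90-fold higher at the low dose, so it cannot be ranked against them. All of these were lowest at the high dose, whereas PCNA was slightly above control there. Other DNA polymerases stayed within 2-fold of control. Of 8 in the list, POLN and DNTT were not well above background on any array, and 0 of the remaining 6 were called at either dose, with a median log2 fold change of 0.14 and 0.17. CCDC111, now PRIMPOL, a primase that restarts stalled forks, read 108, 135 and 51.6 and was 2.12-fold higher with 10 μM than with 100 μM.

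Genes of PCNA-binding proteins, of proteins destroyed on PCNA and of the CRL4 ubiquitin ligase that marks them had values in opposite directions. Of 8 genes, 2 were 2-fold higher and 0 lower at the low dose, and 1 was higher and 3 lower at the high dose, with a median log2 fold change of 0.27 and -0.51. CDKN1A, the p21 inhibitor of cyclin-dependent kinases and of PCNA, read 170.0, 1407 and 1010, or 7.94-fold and 7.07-fold over control. DTL, the adaptor of the CRL4 ubiquitin ligase that reads PCNA on DNA, read 467, 1212 and 75.3, or 2.49-fold over control and then 0.192 of control. CDT1, a licensing factor destroyed on PCNA, was 0.244 of control at the high dose and KIAA0101, now PCLAF, a PCNA-binding factor, 0.178. Thus CDKN1A was high at both doses as POLH was by its brighter probe. DTL, CDT1 and KIAA0101 were low at the high dose as POLQ and RAD18 were.

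Of 4 p53 target genes with a role in repair or nucleotide supply, 3 were 2-fold higher with 10 μM and 1 with 100 μM, with a median log2 fold change of 1.35 and 0.82. DDB2, a sensor of damaged bases, was 4.16-fold and 2.27-fold over control. RRM2B, a subunit of ribonucleotide reductase, was 3.06-fold and 1.92-fold, and XPC 2.13-fold and 1.62-fold. Their median lay above that of all genes at both doses. Of 6 partners of polymerase theta in end joining, 0 were called at the low dose and 1 was lower at the high dose, with a median of -0.12 and -0.72. That gene was RBBP8, which starts the trimming of broken ends and was 0.340 of control. Between the doses RBBP8 was 2.82-fold and MRE11A, now MRE11, a nuclease of broken ends, 2.14-fold higher at the low dose, compared with 9.54-fold for POLQ itself.

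**Figure D4:**
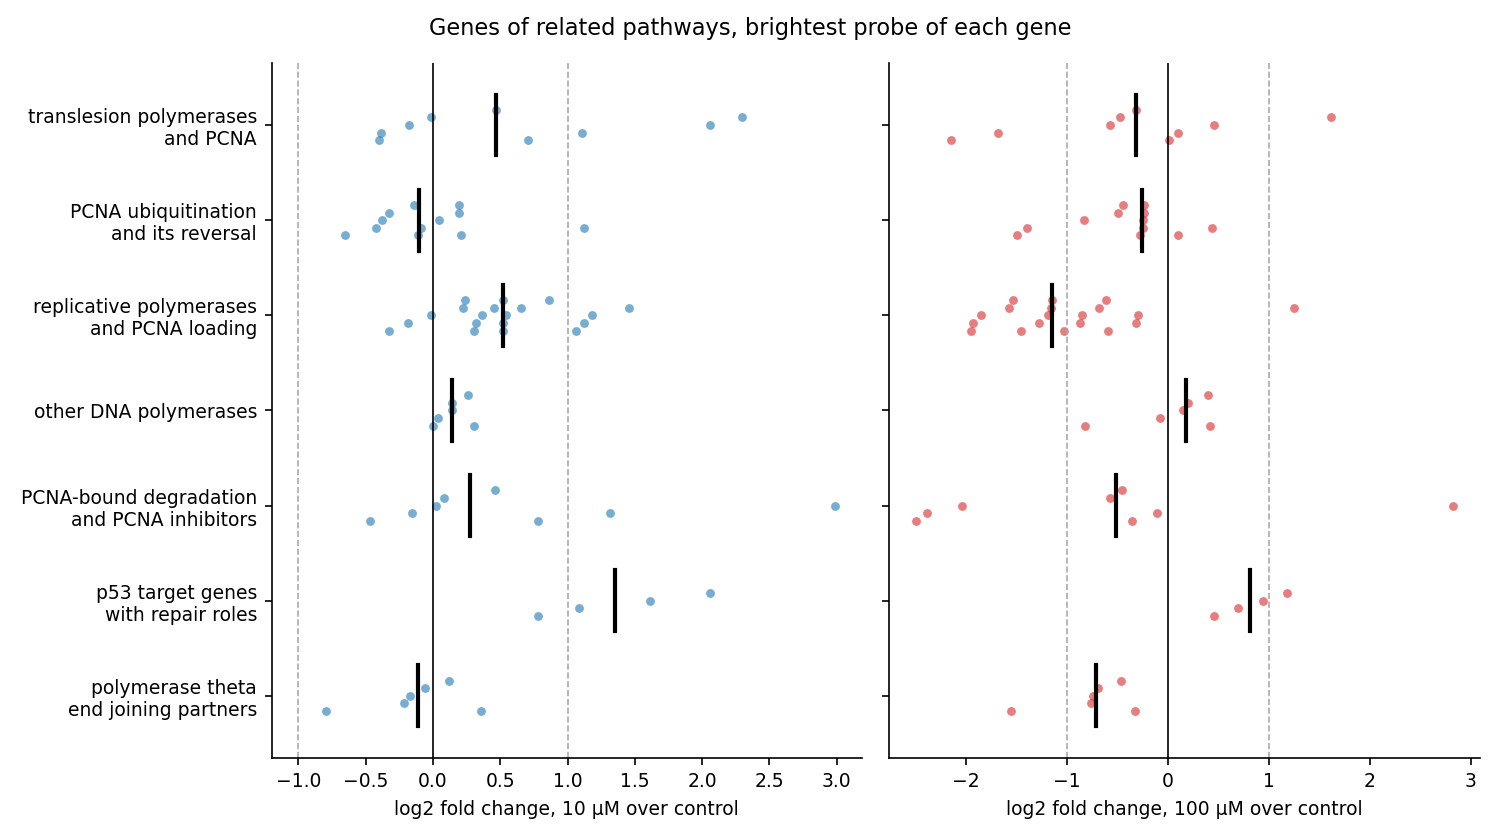
Log2 fold change over control at 10 μM (left) and 100 μM (right) of the members and of 6 related lists, 1 point per gene by its brightest probe, with black bars at the medians and dashed lines at 2-fold. The median of the replicative polymerases goes from 0.52 at 10 μM to -1.15 at 100 μM and that of the p53 target genes from 1.35 to 0.82.

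The calls for PCNA and for POLH probe 1 over control kept their side of 2-fold under 11 other ways of scaling, filtering and background correction. Among these, the other filters and the series table could not move a member value, so they are no check of it. PCNA probe 1 ranged from log2 2.04 to 2.12 at the low dose and from 0.16 to 0.52 at the high dose, and POLH probe 1 from 1.88 to 2.36 and from 1.28 to 1.68. POLQ at the high dose ranged from -2.43 to -1.03. With the normexp background correction, RAD18 at the high dose was at -0.83 and POLQ at the low dose at 0.90, both short of 2-fold. The sign for MAD2L2 at the low dose, for POLI and REV3L at the high dose, and for POLK between the doses changed with the scaling.

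**Figure D5:**
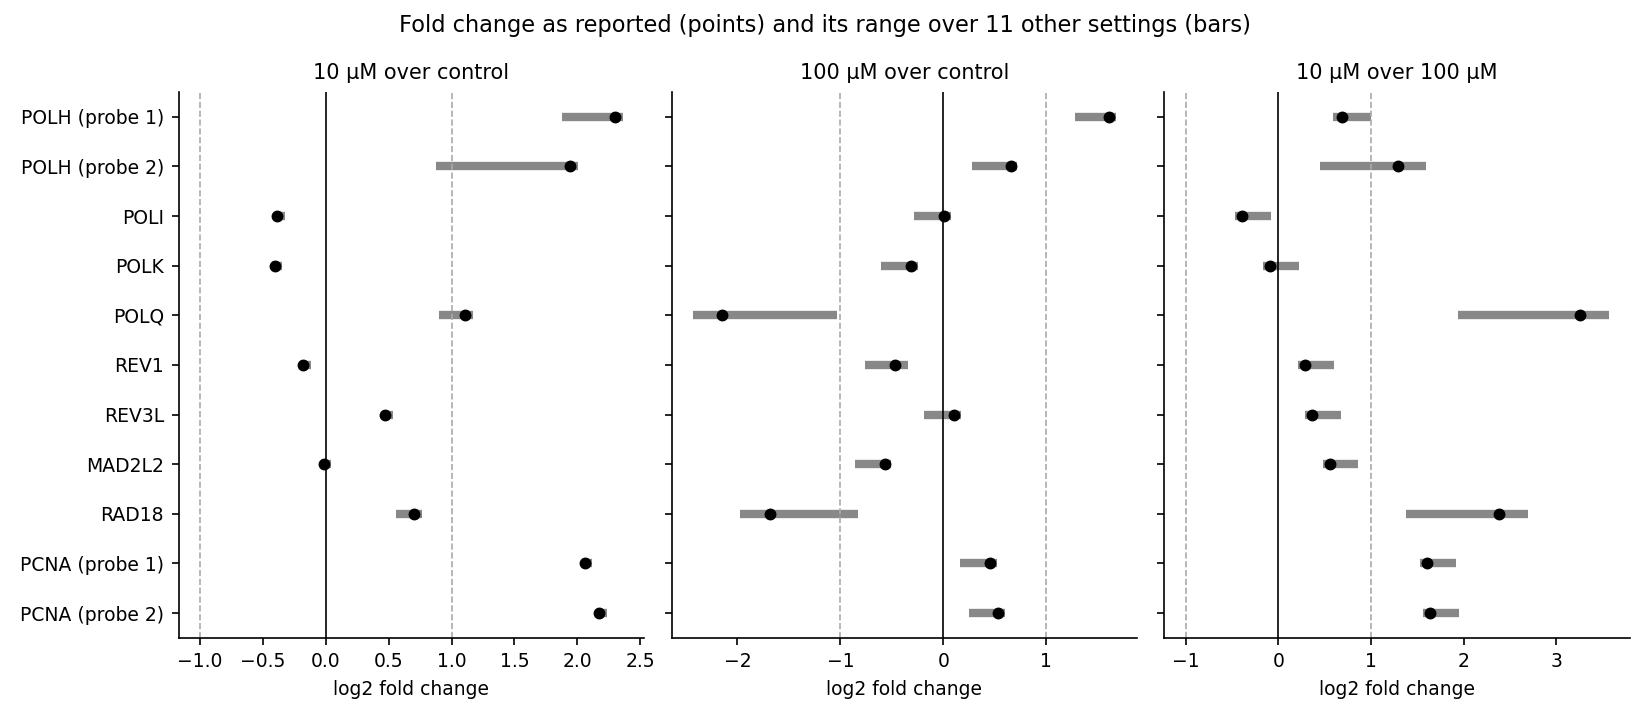
Log2 fold change of each member probe in the 3 comparisons as reported (points), with its range over 11 other settings (grey bars) and dashed lines at 2-fold. The widest bar is that of POLQ between the doses, from 1.94 to 3.56, and those of PCNA at 10 μM run only from 2.04 to 2.24.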

How the data were processed

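RNA from HepG2 cells was measured on Agilent arrays of a single color (Cy3), 1 per condition, and conditions were taken from the labels. The authors deposited the scanner output of Agilent Feature Extraction 10.7.3.1, which holds an intensity for each of 44495 spots after background subtraction. The deposited table of the series held the same intensity values at a tolerance of 1e-06, so it was not scaled between arrays. The number of arrays limits the precision, and spots are no replicates of a condition.

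Log2 intensities were averaged over the spots of a probe without outlier spots and the array's own 75th percentile was subtracted, every probe counted once. A probe was well above background where more than 50% of its spots were. Where the dimmer side was not, it was raised to a floor, the smallest signal that passed on that array (19.5, 22.7 and 21.6 in the order of dose) and a bound is given. Spot SD came from the 50 nearest probes spotted 10 times. Their median SD between spots was divided by the root of the number of spots averaged, and both arrays were combined as a root of summed squares. Each list gene was represented by its brightest probe. Scaling, fold changes and calls, but not the averaging of spots, were tested on probes simulated from the control array with spot noise only. Of probes changed by log2 1.5, 100 of 100 raised and 100 of 100 lowered were called, as were 3 of 19884 unchanged probes. The changed probes had control signals above 100, so recovery of changes in dimmer probes was not tested.

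Members and lists were chosen with earlier results of these data known. Named genes were all members, list genes past 2-fold in any comparison (or the 3 largest where more than 6 passed) and the 5 genes nearest to PCNA, POLH and POLQ. An item that this rule selects is not reported here. The mismatch limit of the p53 motif was chosen after the PCNA windows had been read, so that match supports nothing. Symbols, updated where needed, and promoters came from RefSeq on GRCh38.p14, while the files give probe positions on hg18. The alternatives were no scaling, median, quantile, spike-in (7 probes) and 2 other percentile scalings, normexp with an offset of 50, outlier spots kept, other filters, the series table, and thresholds of 1.5-fold and 3-fold. Python 3.11.15, pandas 2.3.3, numpy 2.4.6, R 4.3.3 and limma 3.58.1 were used.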

Additional observations from a re-analysis of the deposited data

How the results depend on the processing

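The direction of every member value past 2-fold was kept under all 11 alternative settings. Alternatives were run for the member probes and not for other genes. Of 33 member values, 4 changed sign, all of them below 2-fold, and 5 crossed 2-fold. The count of member probes 2-fold higher at the low dose was 3 with normexp in place of 5, and that of probes 2-fold lower at the high dose was 1 in place of 2. At a threshold of 1.5-fold, 2 probes in place of 1 were higher at the high dose. The values that crossed 2-fold with normexp were POLH probe 2 (log2 0.87) and POLQ (0.90) at the low dose, RAD18 at the high dose (-0.83) and POLH probe 2 between the doses (0.45). Without scaling, POLH probe 1 between the doses came to lie at 2-fold. Relative to the values reported, the median of all probes at the high dose over control moved by -0.25 without scaling, -0.29 with median scaling and -0.17 with spike-in scaling, and that between the doses by 0.31, 0.27 and 0.23. The cause of these differences was not tested. No paired analysis was possible because a condition is a single array. POLH probe 2, and POLQ and RAD18 at the high dose, had signals near background, which limits the precision of their fold changes. The normexp setting changes the background correction and adds the offset of 50 together, and these were not separated.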
